A study of Mus musculus with 19 samples.

Results

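Genes of the transforming growth factor beta (TGF-beta) and bone morphogenetic protein (BMP) pathway were followed through sorted cells of the mouse anterior prostate. Members were taken by symbol alone: the TGF-beta, BMP, growth differentiation factor (Gdf) and activin/inhibin ligands, their receptors, the Smad proteins, the latent TGF-beta binding proteins (Ltbp) and secreted antagonists such as Nog, Chrd and Fst. The symbols matched 56 of the 24343 genes in the deposited tables. The rule uses no measured value, but it was chosen with earlier results of these data known.

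Basal, luminal and stromal cells were isolated by flow cytometry from Lgr5-DTR-eGFP mice treated with diphtheria toxin (DT) and from wild type control mice, and the RNA of each sort was sequenced in bulk. Lgr5-DTR-eGFP mice carry the DT receptor and green fluorescent protein under the control of Lgr5, so that DT kills cells in which Lgr5 is active, and the study used them to ablate Lgr5+ stromal cells. The 6 groups were DT-treated Lgr5-DTR-eGFP stromal cells (n = 4 libraries), basal cells (n = 3) and luminal cells (n = 3), here called Lgr5-DTR, and wild type stromal, basal and luminal cells (n = 3 each). The labels list purchased C57BL/6 mice without tying them to the control group, and they give neither ages nor sorting antibodies, nor say whether wild type mice received DT. The allele, the toxin and the loss of cells therefore cannot be told apart. Nothing in the labels ties each library to its own mouse, so a p-value here reflects only library-to-library variation, part or all of which may be technical.

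TGF-beta is secreted as a latent complex in which the ligand is bound, through its propeptide, to an Ltbp protein that anchors it in the extracellular matrix until it is released. Active ligands join type I and type II serine/threonine kinase receptors; TGF-beta and activin receptors act mainly through Smad2 and Smad3, BMP receptors through Smad1, Smad5 and Smad9, and both branches share Smad4, while Smad6 and Smad7 are inhibitory. In the prostate, TGF-beta is known to restrain epithelial growth, and stromal cells are a known source of its ligands.

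Levels are given in FPKM (fragments scaled to transcript length and to the mapped fragments of the library), summed over the transcripts of a gene, and can therefore be compared between genes. Differences are on the scale log2(FPKM + 1), which understates the change of genes near or below 1 FPKM, and are given with their standard error (SE). A gene was tested where at least 3 libraries of the comparison reached 1 FPKM, and called where the adjusted p of limma (Benjamini-Hochberg over all tested genes) was below 0.05. Of the 56 members, 42 were tested in at least 1 comparison, and 11 stayed below 1 FPKM in every library, among them Acvr1c, Bmp10, Bmp15, Gdf1, Gdf2, Gdf3, Gdf5, Gdf6 and Smad9. Acvr1b, Gdf11 and Inha passed 1 FPKM in some library but were tested in no comparison. A call in bulk RNA cannot tell fewer cells of one type from less RNA per cell.

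The 19 libraries held between 5.26 and 9.38 gigabases of aligned sequence, and between 9209 and 10819 genes at 1 FPKM or more. Lgr5 itself stood at 29.1, 25.8 and 77.6 FPKM in wild type stromal cells and at 0.971, 0.869, 1.32 and 0.501 FPKM in Lgr5-DTR stromal cells (log2 difference -4.40, SE 0.35, limma adjusted p = 0.000318), and at no more than 1.99 FPKM in any basal or luminal library. Summed markers followed the sorts: basal markers (Krt5, Krt14, Krt15, Krt17, Trp63) totalled 7211 to 12940 FPKM in basal cells and at most 55.2 FPKM in stromal cells, and fibroblast markers (Pdgfra, Dcn, Lum, Col1a1, Col1a2, Col3a1) 2715 to 5336 FPKM in stromal cells. Luminal markers reached 3576 to 4814 FPKM in basal cells, against 14290 to 26510 FPKM in luminal cells. A set of 7 of the 19 tables, spread over every group except wild type stromal cells, differed in form from the other 12: each held 424 transcripts with a low-data status and 2551 to 3111 transcripts whose FPKM lay above its own upper limit, against 0 and at most 3 in the others. The median difference over all tested genes was not 0 everywhere (-0.0863 in the stromal and 0.104 in the luminal genotype comparison, -0.235 for wild type stromal minus luminal and -0.145 for basal minus luminal), and scaling by median ratios brought these medians to 0.0165, 0.0123, 0.0118 and 0.000569. No call on a named member changed direction under either other scaling.

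Ltbp1, called in opposite directions in stromal and basal cells, and Ltbp4, called lower in basal cells, each have a transcript from an outer and one from an inner start site in the tables. The 250 bases before the corresponding RefSeq starts are shown, together with those of Tgfb2 and Gdf10, which fell with Ltbp1 in stromal cells. The inner Ltbp1 window ends at position 75178780, while the deposited transcript begins at 75178810. For Tgfb2 the window begins at 186705990, and the deposited minus-strand transcript starts at 186705992, inside the window. Sequences are from RefSeq on GRCm38.p6 (39 of the 56 members had a window), written 5′ to 3′ on the gene's strand, with capitals marking the Smad-binding sequence CAGAC or its complement GTCTG.
Ltbp1 outer start (chr17:75005279-75005528, plus strand): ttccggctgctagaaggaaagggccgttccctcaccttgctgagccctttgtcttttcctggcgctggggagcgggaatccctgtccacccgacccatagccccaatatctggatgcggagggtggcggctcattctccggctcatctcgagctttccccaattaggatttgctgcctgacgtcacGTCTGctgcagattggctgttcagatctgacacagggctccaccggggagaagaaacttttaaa
Ltbp1 inner start (chr17:75178531-75178780, plus strand): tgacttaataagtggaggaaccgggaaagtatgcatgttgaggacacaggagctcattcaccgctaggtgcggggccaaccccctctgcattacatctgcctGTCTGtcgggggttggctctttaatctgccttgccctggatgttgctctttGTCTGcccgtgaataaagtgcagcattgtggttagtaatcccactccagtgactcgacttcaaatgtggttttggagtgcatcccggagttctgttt
Ltbp4 outer start (chr7:27337613-27337862, minus strand): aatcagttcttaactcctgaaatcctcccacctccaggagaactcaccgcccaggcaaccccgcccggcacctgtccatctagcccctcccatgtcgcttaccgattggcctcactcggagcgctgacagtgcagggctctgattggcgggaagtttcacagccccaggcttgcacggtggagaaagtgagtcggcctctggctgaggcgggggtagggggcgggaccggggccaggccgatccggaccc
Ltbp4 inner start (chr7:27333649-27333898, minus strand): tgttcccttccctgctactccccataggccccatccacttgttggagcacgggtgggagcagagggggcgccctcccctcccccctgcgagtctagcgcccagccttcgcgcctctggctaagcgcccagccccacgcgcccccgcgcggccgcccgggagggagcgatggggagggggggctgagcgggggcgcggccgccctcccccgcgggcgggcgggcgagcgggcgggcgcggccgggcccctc
Tgfb2 (chr1:186705990-186706239, minus strand): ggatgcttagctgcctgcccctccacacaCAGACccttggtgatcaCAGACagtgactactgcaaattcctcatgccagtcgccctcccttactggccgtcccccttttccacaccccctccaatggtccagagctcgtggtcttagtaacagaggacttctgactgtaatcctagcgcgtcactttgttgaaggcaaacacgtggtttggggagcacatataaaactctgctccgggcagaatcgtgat
Gdf10 (chr14:33923337-33923586, plus strand): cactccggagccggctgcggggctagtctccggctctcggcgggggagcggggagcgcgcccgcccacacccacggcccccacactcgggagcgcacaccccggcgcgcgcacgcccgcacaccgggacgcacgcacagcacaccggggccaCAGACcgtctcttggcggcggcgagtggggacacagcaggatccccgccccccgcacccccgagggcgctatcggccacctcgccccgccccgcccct

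The Smad-binding sequence occurred 1 time before the outer Ltbp1 start, 2 times before the inner one, 2 times before Tgfb2, 1 time before Gdf10 and not at all before either Ltbp4 start. It is a common match: 42.2% of 32851 promoter windows of the same length held it on either strand. The AP-1 sequence TGACTCA or TGAGTCA, found in 4.46% of all windows, was in none of the 6. These are letter matches only.

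Ltbp1 RNA was assigned mainly to the transcript from the outer start, which held all of the Ltbp1 FPKM in the 3 wild type stromal libraries and between 59.7% and 100% in every other library. The transcript from the inner start reached its highest values, 2.24 and 2.06 FPKM, in Lgr5-DTR basal libraries 2 and 3. All Ltbp4 FPKM was assigned to the transcript that begins at the inner start; the transcript from the outer start was listed at 0 in all 19 libraries. Transcript values are the authors' Cufflinks estimates and share reads between overlapping transcripts.

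**Figure D1:**
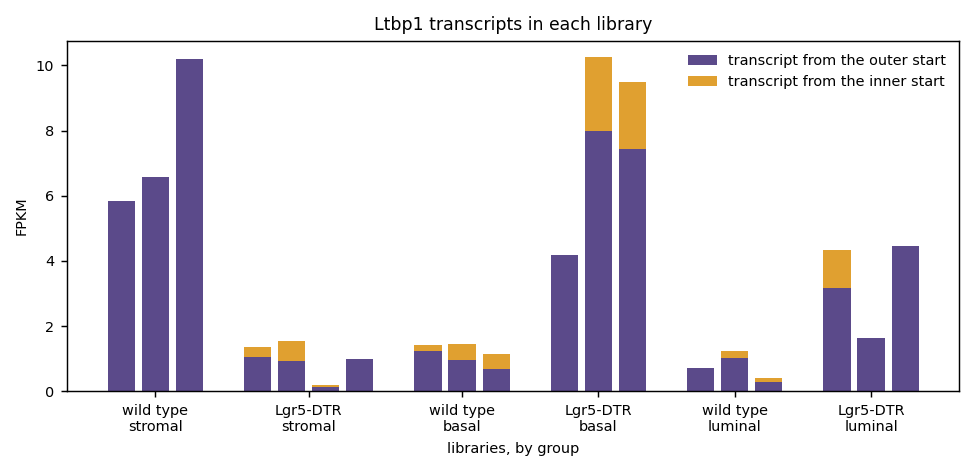
Ltbp1 FPKM in each library, stacked by transcript: the transcript from the outer start (violet) and from the inner start (yellow); bars are single libraries, in replicate order within each group. Wild type stromal libraries stand at 5.84 to 10.2 FPKM, all from the outer start, while Lgr5-DTR stromal libraries stand at 0.183 to 1.55 FPKM and Lgr5-DTR basal libraries at 4.18 to 10.2 FPKM.

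In wild type mice, more pathway genes were called highest in stromal cells than in either epithelial sort. No share of all genes was computed for such patterns over all 3 sorts, so these counts have no background. Of the 41 members tested across the wild type sorts, 21 were higher in stromal cells than in both epithelial sorts, 5 were highest in basal cells (Acvr2a, Bmp5, Gdf15, Inhba, Smad1) and 3 in luminal cells (Bmp8b, Bmpr1b, Smad4). In wild type, Chrd, Gdf7, Nog, Bmp6, Bmpr2 and Ltbp2 reached 1 FPKM only in stromal, Bmp5 only in basal and Bmp8b and Bmpr1b only in luminal libraries. These members passed the filter only through the sort where they are high, so their patterns follow in part from that filter. In stromal against basal cells 22 of 41 members were called higher and 9 lower, against 29.2% and 27.8% (57% in either direction) of the 11566 genes tested. In stromal against luminal cells 29 were called higher and 6 lower, against 28.5% and 39.3% (67.8%) of genes. In basal against luminal cells 20 were higher and 6 lower, against 25.5% and 36.8% (62.3%). The libraries of the 2 sorts did not overlap for 32, 35 and 26 of the 41 members in these 3 comparisons, against 63.7%, 69.5% and 69.4% of all genes. A further 7 members were lowest in luminal cells with no difference called between the other sorts (Bmp8a, Smad3, Smad5, Tgfb1, Tgfbr1, Tgfbr2, Tgfbr3).

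**Figure D2:**
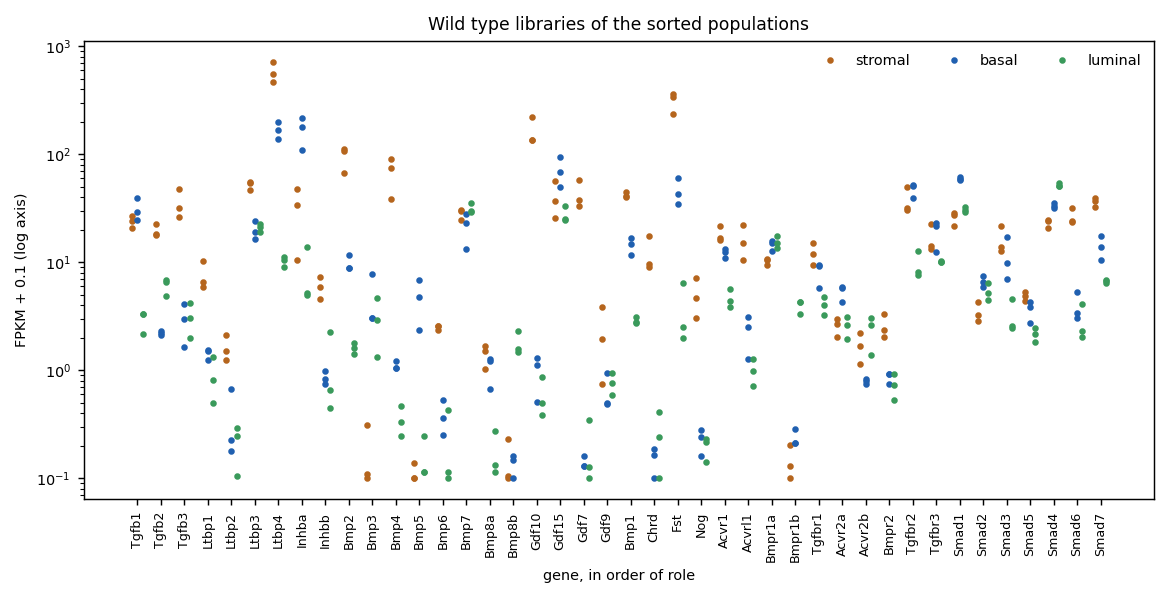
FPKM (plus 0.1, log axis) of the 42 tested members in each wild type library, by sort: stromal (brown), basal (blue) and luminal (green), 3 libraries each. Gdf10, Gdf7, Bmp4 and Chrd stand far above the epithelial libraries in stromal cells, Inhba and Bmp5 are highest in basal cells, and Bmpr1b in luminal cells.

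The 3 TGF-beta ligands differed in where they were highest in wild type tissue. Tgfb1, the isoform best known from immune and wounded tissue, stood at 23.9, 26.9 and 20.9 FPKM in stromal cells and 39.1, 29.4 and 24.6 FPKM in basal cells, but at 3.21, 3.22 and 2.06 FPKM in luminal cells. No luminal library reached the lowest stromal or basal one (basal minus luminal 3.05, SE 0.22, limma adjusted p = 1.92e-07), while the stromal and basal levels were not called different. Tgfb2 was highest in stromal cells (17.7, 18.3 and 22.5 FPKM), lower in luminal cells (4.78, 6.79 and 6.44 FPKM) and lowest in basal cells (2.24, 2.12 and 2.02 FPKM), and every step in that order was called. Tgfb3 averaged 35.4 ± 11.2 FPKM (SD, n = 3) in stromal cells and under 3 FPKM in both epithelial sorts, whose libraries overlapped.

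All 4 Ltbp genes, which store latent TGF-beta in the matrix or, for Ltbp2, serve mainly as a matrix protein, were highest in stromal cells. Ltbp4 was the most abundant member of all in wild type stromal cells, at 559, 465 and 724 FPKM; it stood at 138, 198 and 167 FPKM in basal cells and 11.1, 8.89 and 10.4 FPKM in luminal cells, with no overlap between sorts. Stromal Ltbp4 was 57.6 times the luminal mean (log2 difference 5.70, SE 0.20, limma adjusted p = 3.38e-10). Ltbp3, which escorts TGF-beta from the cell, was 52.6 ± 4.71 FPKM in the stroma, 19.8 ± 3.79 FPKM in basal and 20.9 ± 1.64 FPKM in luminal cells (SD, n = 3 each).

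The BMP and Gdf ligands split by sort. Bmp2 and Bmp4, ligands known from prostate development, and Gdf10 and Gdf7 were stromal: Gdf10 stood at 135, 136 and 224 FPKM in stromal cells and at no more than 1.2 FPKM in any wild type epithelial library (stromal minus basal 6.45, SE 0.25, limma adjusted p = 7.08e-10). Bmp4 stood at 74.8, 38.8 and 90.5 FPKM in stromal cells, near 1 FPKM in basal cells (1.13, 0.955 and 0.962) and at 0.148 to 0.368 FPKM in luminal cells. Bmp5 was a basal ligand (6.77, 2.27 and 4.67 FPKM, against at most 0.145 FPKM elsewhere in wild type tissue), and Bmp8b was called highest in luminal cells, at 2.21, 1.48 and 1.39 FPKM. Bmp7 was high in all sorts, at 30.3, 24.5 and 29.7 FPKM in stromal, 13.1, 23.1 and 28.1 in basal and 29.7, 35.7 and 29.0 in luminal cells; only basal minus luminal was called (-0.59, SE 0.24, limma adjusted p = 0.0499), so close to the threshold that the order is uncertain.

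Inhba, which encodes the subunit of activin A, stood at 216, 180 and 111 FPKM in wild type basal cells, where it and Ltbp4 had the highest means (169 and 168 FPKM) and Ltbp4 was the higher in libraries 2 and 3. Its stromal libraries stood at 33.6, 47.6 and 10.4 FPKM and its luminal ones at 13.7, 5.10 and 4.88 FPKM; the stromal and luminal ranges overlapped, although their difference was called (1.73, SE 0.55, limma adjusted p = 0.0177). Fst, the secreted protein that binds and blocks activin, followed another order, at 362, 337 and 236 FPKM in stromal, 60.5, 42.7 and 34.8 in basal and 6.40, 2.44 and 1.91 in luminal cells. Chrd and Nog, the BMP antagonists chordin and noggin, were stromal: Chrd stood at 9.03, 9.50 and 17.4 FPKM and Nog at 7.09, 2.94 and 4.6 FPKM, and neither passed 0.316 FPKM in a wild type epithelial library. Bmp1, the tolloid protease that cleaves chordin and procollagens, stood at 44.8, 39.9 and 41.2 FPKM in stromal, 11.7, 16.7 and 14.7 in basal and 2.68, 2.74 and 3.05 in luminal cells.

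Tgfbr2, the type II TGF-beta receptor, averaged 37.5 ± 11.1 FPKM in stromal and 47.2 ± 6.67 FPKM in basal cells, and 9.37 ± 2.76 FPKM in luminal cells (SD, n = 3 each), and its partner Tgfbr1 was also lowest in luminal cells (3.92 ± 0.75 FPKM). Acvrl1, a type I receptor best known from endothelium, was highest in stromal cells (14.9, 10.5 and 22 FPKM), where the summed endothelial markers (Pecam1, Cdh5, Kdr, Emcn, Tek) came to 6.42 to 9.49 FPKM; the part of endothelial RNA in this value was not tested. Bmpr1a, a type I BMP receptor, was lower in stromal cells (10.4, 9.32 and 10.6 FPKM) than in basal (12.6, 15.7 and 15.1 FPKM) and luminal cells (17.4, 14.9 and 13.6 FPKM). The related Bmpr1b was luminal, at 3.23, 4.20 and 4.19 FPKM, against at most 0.189 FPKM in wild type stromal or basal libraries.

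Among the Smads, Smad1 of the BMP branch was highest in basal cells (59.6, 61.8 and 57.7 FPKM) and the shared Smad4 highest in luminal cells (54.4, 51.0 and 50.4 FPKM), and in both the groups did not overlap. Smad3 was lower in luminal cells than in both other sorts (3.12 ± 1.19 FPKM, beside 16.0 ± 4.78 FPKM in the stroma and 11.3 ± 5.30 FPKM in basal cells, SD, n = 3 each). The inhibitory Smad6 and Smad7, which are also induced by the pathway they block, were highest in stromal cells, at 26.2 ± 4.52 and 36.3 ± 3.67 FPKM (SD, n = 3).

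**Figure D3:**
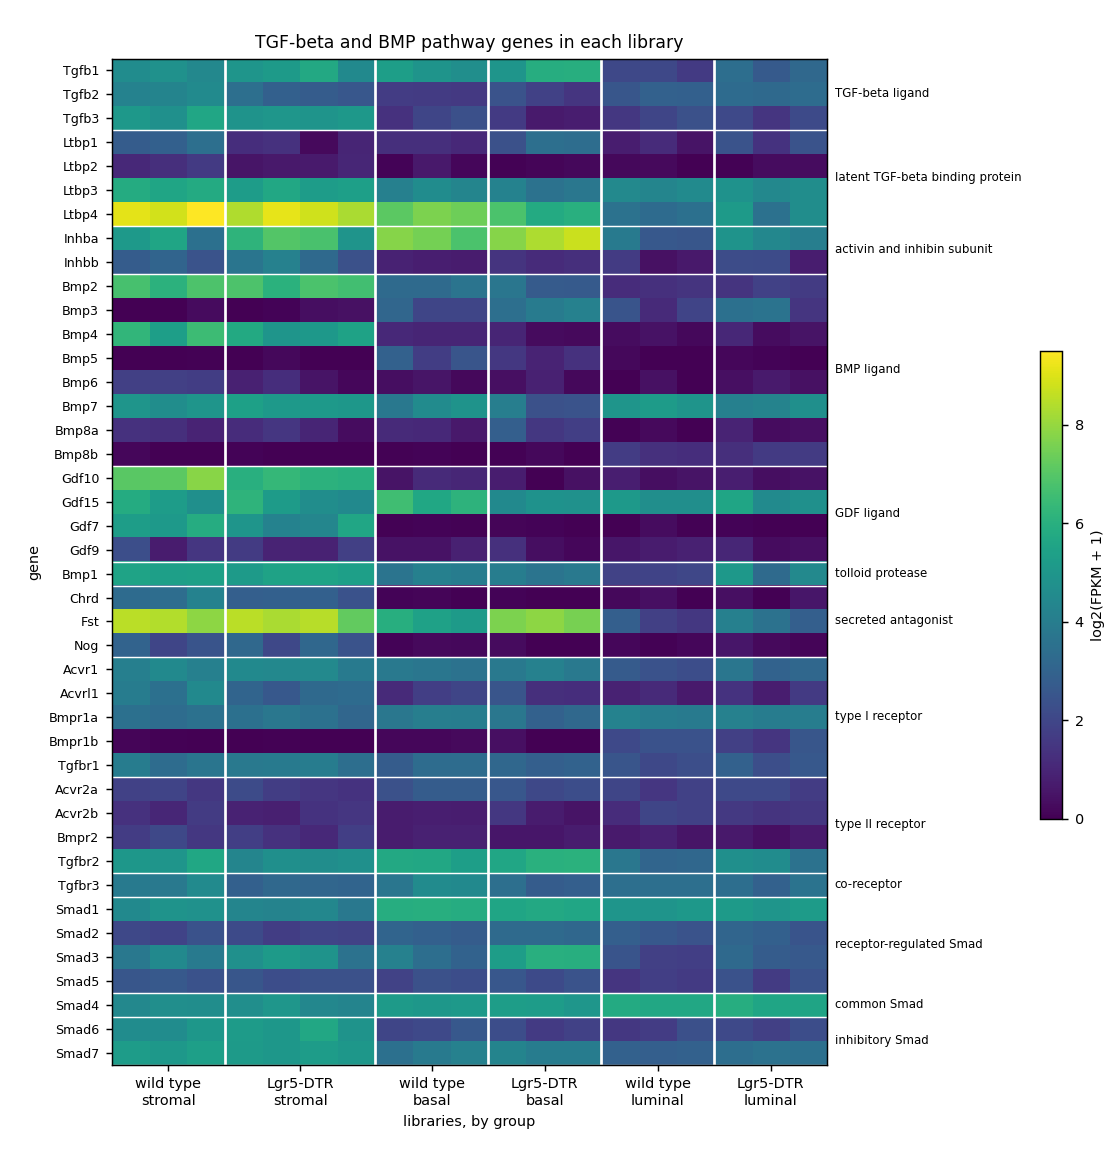
log2(FPKM + 1) of the 42 tested members (rows, ordered by role) in all 19 libraries (columns, by group). The stromal columns are brightest for Ltbp4, Fst, Gdf10 and Bmp2, the basal columns for Inhba; Fst and Smad3 are brighter in Lgr5-DTR than in wild type basal libraries.

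In stromal cells of Lgr5-DTR mice, 3 members fell and none rose. They were Ltbp1, Tgfb2 and Gdf10, of 38 members tested; 0 higher and 3 lower calls stand beside 0.0655% and 1.1% of all 10689 genes (1.17% in either direction). At an unadjusted p below 0.05 limma gave 1 member higher and 11 lower. Here and below, the share of all genes at this unadjusted threshold is not given. Such counts therefore cannot be set against the shares of called genes. The median member difference was -0.18, against -0.09 over all tested genes. Ltbp1 stood at 5.84, 6.56 and 10.2 FPKM in wild type stromal cells and at 1.37, 1.55, 0.183 and 0.990 FPKM in Lgr5-DTR stromal cells. The groups did not overlap, and the wild type mean was 7.37 times the other (log2 difference -2.10, SE 0.31, limma adjusted p = 0.00758). Tgfb2 stood at 17.7, 18.3 and 22.5 FPKM against 10.1, 6.62, 5.82 and 4.92 FPKM (-1.42, SE 0.25, limma adjusted p = 0.0224). Gdf10, which encodes a BMP3-like ligand, stood at 135, 136 and 224 FPKM against 63.4, 79.1, 68.7 and 62.7 FPKM (-1.22, SE 0.22, limma adjusted p = 0.0249).

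Without wild type stromal library 3, the highest for all 3 genes, none was called: adjusted p was 0.0509 for Ltbp1, 0.146 for Tgfb2 and 0.133 for Gdf10, with log2 differences of -1.89, -1.31 and -0.98. Tgfb2 also lost its call without wild type library 1 (adjusted p = 0.0975), wild type library 2 (0.0609) or Lgr5-DTR library 3 (0.103), and Gdf10 without wild type library 1 (0.0812), Lgr5-DTR library 1 (0.0846) or Lgr5-DTR library 3 (0.103). Without the filter on low values none was called, Ltbp1 having an adjusted p of 0.0559. The summed fibroblast markers moved in the same direction, from 5121 to 5336 FPKM in wild type to 2715 to 3320 FPKM in Lgr5-DTR stromal libraries. All 6 markers were detected in both. Most of this sum was Dcn (3920, 4025 and 3946 against 2708, 2316, 2230 and 2412 FPKM), and the collagens were also lower. Pdgfra (41.8, 44.3 and 60.5 against 38.4, 60.3, 43.5 and 35.1 FPKM) and Lum (165, 173 and 119 against 83.9, 95.9, 82.7 and 136 FPKM) overlapped. Summed smooth muscle markers (Acta2, Myh11, Cnn1, Tagln, Actg2) stood at 130 to 234 FPKM in wild type and 265 to 384 FPKM in Lgr5-DTR stromal cells. Their part in these results was not tested.

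The members next in line in stromal cells were not called. Tgfbr3, the co-receptor betaglycan, stood at 14.2, 13.2 and 22.5 FPKM in wild type and at 6.46, 8.24, 7.88 and 7.33 FPKM in Lgr5-DTR cells (-1.02, SE 0.24, limma adjusted p = 0.0726). Bmp6 stood at 2.28 to 2.5 FPKM against 0.119 to 1.38 FPKM (-1.08, SE 0.28, limma adjusted p = 0.109). Groups that did not overlap were seen for 11 of the 38 members, against 11.2% of all genes tested.

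In basal cells, 4 members rose and 3 fell, of 30 tested. The higher calls were Fst, Smad3, Ltbp1 and Bmp3 and the lower calls Gdf15, Tgfbr3 and Ltbp4, against 6.5% higher and 4.46% lower (11% in all) among all 9755 genes; the median member difference was 0.05, and 0.02 over all genes. Fst stood at 60.5, 42.7 and 34.8 FPKM in wild type and at 196, 235 and 185 FPKM in Lgr5-DTR basal cells, and no value of one group reached the other (2.16, SE 0.21, limma adjusted p = 0.00118). Its 3 transcripts, which share a start, were each higher in every Lgr5-DTR than in every wild type library. Smad3, which carries the TGF-beta and activin signal, stood at 17.2, 9.74 and 6.95 FPKM in wild type and at 38.4, 63.1 and 61.7 FPKM in Lgr5-DTR basal cells (2.22, SE 0.32, limma adjusted p = 0.00495). Ltbp1 stood at 1.43, 1.46 and 1.15 FPKM against 4.18, 10.2 and 9.51 FPKM (1.86, SE 0.29, limma adjusted p = 0.00652). Fst, Smad3 and Ltbp1 kept their calls in every alternative in which they were tested. Groups that did not overlap were seen for 13 of the 30 members, against 31.1% of all genes.

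Bmp3, a ligand that antagonizes other BMPs, stood at 7.73, 2.94 and 2.95 FPKM in wild type and 9.96, 14.5 and 17.3 FPKM in Lgr5-DTR basal cells (1.51, SE 0.33, limma adjusted p = 0.0244). Gdf15, a stress-induced circulating ligand, fell from 95.5, 50 and 69.3 FPKM to 21.7, 27.5 and 27.1 FPKM (-1.42, SE 0.23, limma adjusted p = 0.00731). Tgfbr3 stood at 12.4, 22.9 and 21.6 FPKM in wild type and 9.95, 5.80 and 6.40 FPKM in Lgr5-DTR cells (-1.24, SE 0.27, limma adjusted p = 0.0218). Ltbp4 stood at 138, 198 and 167 FPKM against 110, 54.9 and 63.1 FPKM (-1.18, SE 0.26, limma adjusted p = 0.0241). Bmp3, Tgfbr3 and Ltbp4 lost their calls without Lgr5-DTR library 2 (adjusted p = 0.0982, 0.102 and 0.108), Lgr5-DTR library 3 (0.0843, 0.0749 and 0.0798), wild type library 2 (0.11, 0.0998 and 0.108) or wild type library 3 (0.0993, 0.0944 and 0.0913).

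Lgr5-DTR basal library 1 stood closer to the wild type libraries than libraries 2 and 3 for all 3 genes whose calls depended on single libraries, and also for Smad3 and Ltbp1. Without it, 16 members were called, 7 higher and 9 lower, among them all 7 above, and 23.7% of all genes were called, against 11% with it; Inhba and Tgfb1 joined the higher calls and Bmp7 the lower ones. Inhba stood at 221, 323 and 425 FPKM in Lgr5-DTR basal libraries 1 to 3 and Bmp7 at 15.8, 4.18 and 4.34 FPKM, against 13.1, 23.1 and 28.1 FPKM of Bmp7 in wild type. In that library the summed endothelial markers came to 19.7 FPKM, against 8.18 and 9.14 FPKM in its replicates, and the summed fibroblast markers to 637.5 FPKM, against 313 and 330 FPKM. The wild type basal libraries held 732 to 882 FPKM of fibroblast markers. In the basal libraries of both genotypes nearly all of this sum was Dcn. No other marker of that list passed 1.853 FPKM in a basal library. The part of other cells' RNA in the basal results was not tested.

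**Figure D4:**
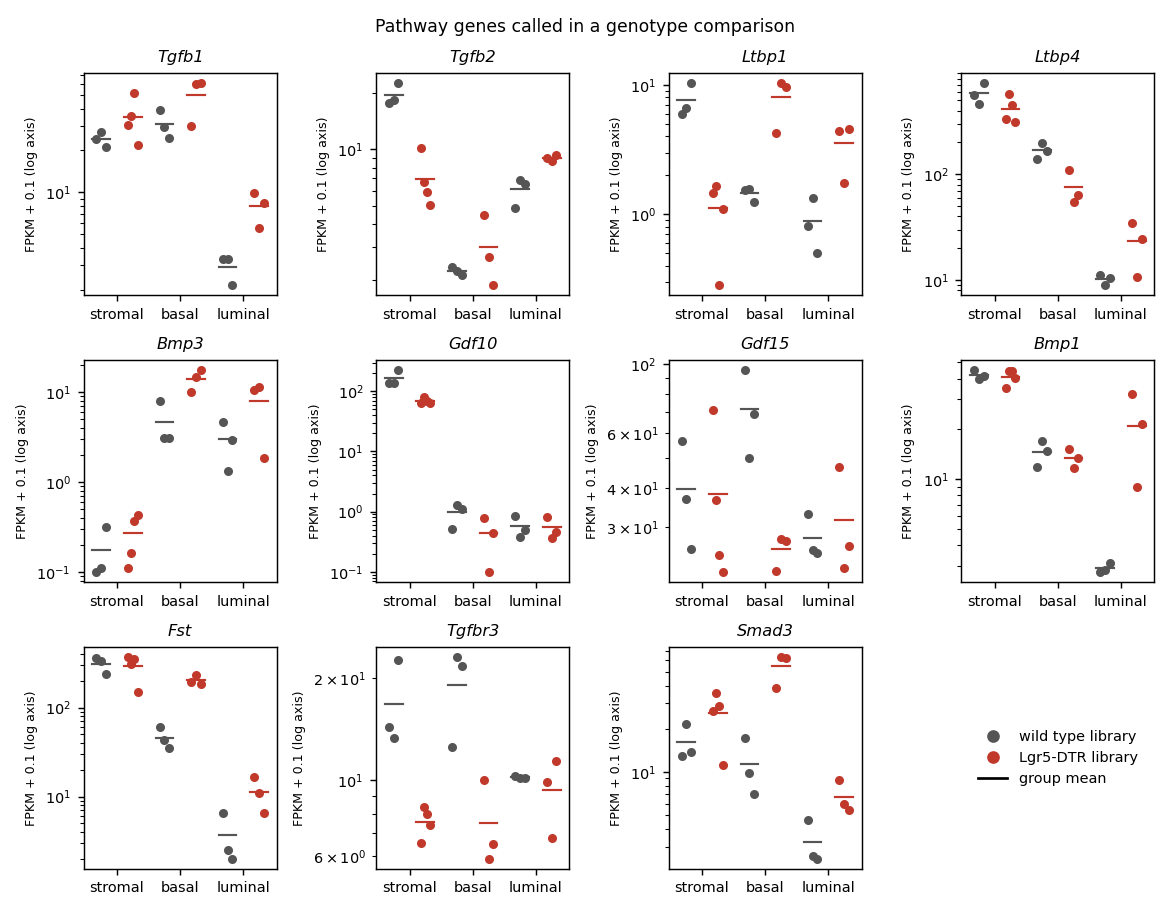
FPKM (plus 0.1, log axis) of the 11 members called in a genotype comparison, by sort, for wild type (grey) and Lgr5-DTR (red) libraries; lines are group means. Ltbp1 is lower in Lgr5-DTR stromal cells and higher in Lgr5-DTR basal cells, and Bmp1 in luminal Lgr5-DTR cells stands at 8.80 to 32.2 FPKM, above the wild type at 2.68 to 3.05 FPKM.

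In luminal cells, 2 members rose and none fell, of 31 tested, against 2.62% and 0.513% of all 10524 genes (3.14% in either direction). Groups that did not overlap were seen for 9 of the 31 members, against 27.1% of all genes. At an unadjusted p below 0.05, limma gave 11 members higher and 1 lower; the median member difference was 0.33, against 0.10 over all genes. Bmp1 stood at 2.68, 2.74 and 3.05 FPKM in wild type and at 32.2, 8.80 and 21.4 FPKM in Lgr5-DTR luminal cells, a mean 7.37 times higher (2.34, SE 0.39, limma adjusted p = 0.0207). Tgfb1 stood at 3.21, 3.22 and 2.06 FPKM in wild type and 9.80, 5.44 and 8.28 FPKM in Lgr5-DTR luminal cells (1.19, SE 0.26, limma adjusted p = 0.0416). In both, every Lgr5-DTR library lay above every wild type library, and Lgr5-DTR library 2 was the lowest.

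Ltbp1 (0.710, 1.24 and 0.403 FPKM in wild type and 4.34, 1.63 and 4.45 FPKM in Lgr5-DTR luminal cells), Inhba (13.7, 5.10 and 4.88 against 28.7, 19.9 and 15.6 FPKM) and Fst (6.40, 2.44 and 1.91 against 16.4, 10.9 and 6.40 FPKM) came next and were not called, at limma adjusted p = 0.0687, 0.0761 and 0.0902. Bmp1 lost its call without wild type library 2 (adjusted p = 0.111) or library 3 (0.1), and Tgfb1 without wild type library 2 (0.135), wild type library 3 (0.155) or Lgr5-DTR library 1 (0.154) and under quantile normalization (0.0683). More members were called without some other libraries: 6 without Lgr5-DTR library 3, and 4 without Lgr5-DTR library 2 or wild type library 1. Of all genes, 8.57%, 2.67% and 4.24% were then called. The luminal markers summed to 23780 to 26510 FPKM in wild type and 14290 to 18280 FPKM in Lgr5-DTR luminal cells. Markers of other cells were higher in the same libraries: summed fibroblast markers were 130, 61.4 and 129 FPKM in Lgr5-DTR luminal libraries 1 to 3 against 37.8 to 57.4 FPKM in wild type. Summed macrophage markers (Cd68, Adgre1, Csf1r, Lyz2, C1qa) were 66.2, 17.4 and 44.7 FPKM against 8.52 to 10.4 FPKM. Lgr5-DTR library 2 was the lowest of its group in both. Among the fibroblast markers, the collagens were higher, while Dcn stood at 34.6, 11.9 and 15 FPKM in wild type and 15.3, 9.69 and 7.38 FPKM in Lgr5-DTR luminal cells, and Pdgfra stayed at or below 0.229 FPKM and Lum at or below 0.309 FPKM in all luminal libraries. The part of other cells' RNA in the luminal results was not tested.

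**Figure D5:**
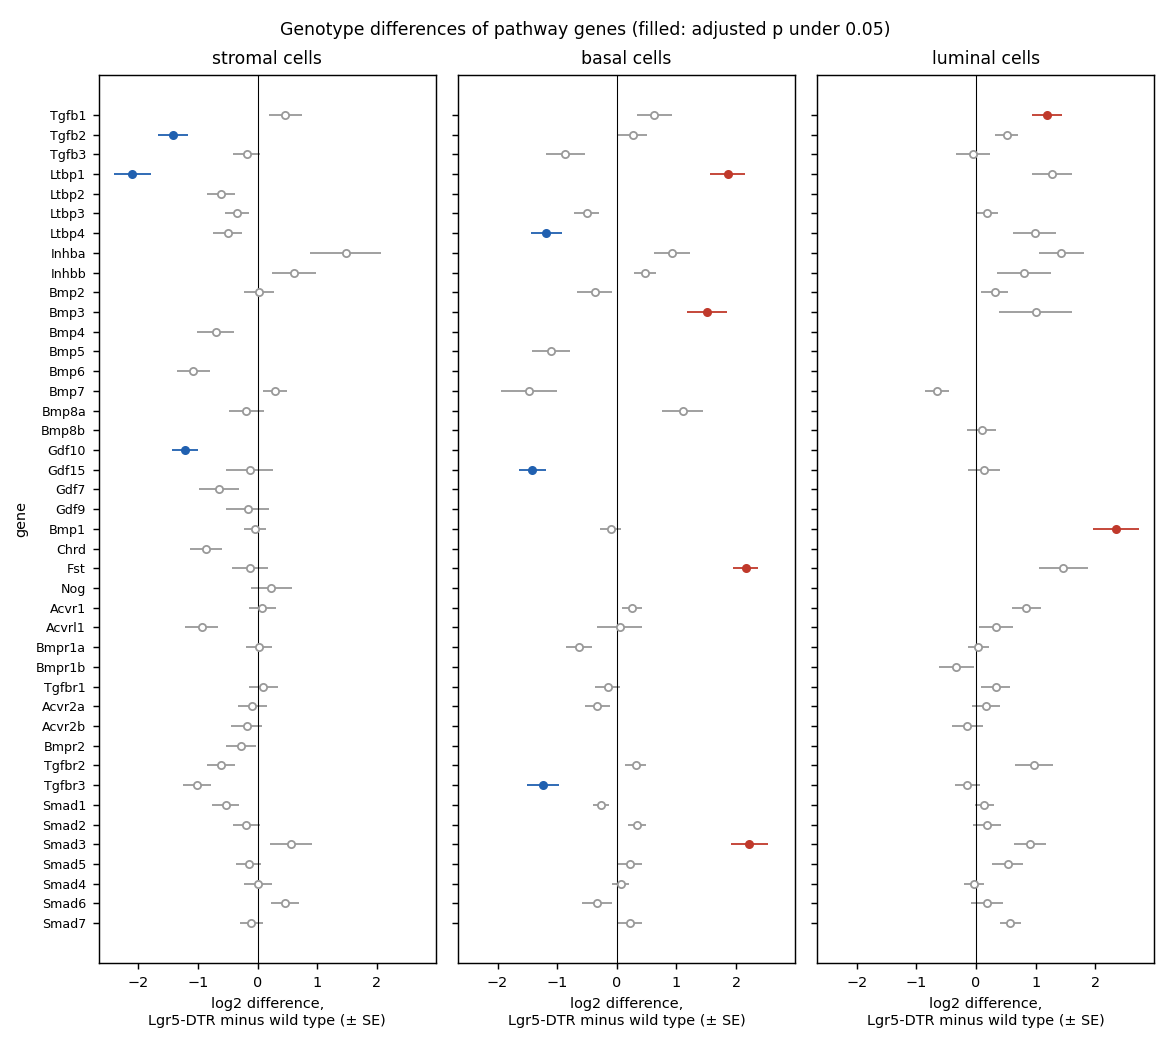
log2 difference (Lgr5-DTR minus wild type, points; bars are 1 SE) of each tested member in stromal, basal and luminal cells, red where called higher, blue where called lower, open grey where not called. Of the 12 calls, 3 are in stromal cells, 7 in basal cells and 2 in luminal cells, and Ltbp1 has 2 of opposite direction.

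Genotype calls differed between the sorts, and the difference itself was tested for each pair of sorts. Ltbp1 was the only one of the 11 called genes to be called in 2 sorts, lower in stromal and higher in basal cells. Its stromal effect minus its basal effect was -3.96 (SE 0.45, limma adjusted p = 0.000168), and its stromal minus its luminal effect -3.38 (SE 0.47, limma adjusted p = 0.00138). Fst differed between stromal and basal cells (-2.29, SE 0.42, limma adjusted p = 0.00813): its stromal levels were 362, 337 and 236 FPKM in wild type and 370, 312, 356 and 149 FPKM in Lgr5-DTR cells, overlapping. Tgfb2 differed between stromal and basal cells (-1.68, SE 0.36, limma adjusted p = 0.0181) and between stromal and luminal cells (-1.93, SE 0.32, limma adjusted p = 0.0054); its luminal levels were 4.78, 6.79 and 6.44 FPKM in wild type and 8.95, 8.6 and 9.19 FPKM in Lgr5-DTR cells, a difference not called by itself. These 2 pairs share the stromal libraries, so they are not independent.

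Bmp1 differed between luminal cells and both others: the stromal minus the luminal effect was -2.39 (SE 0.43, limma adjusted p = 0.00807) and the basal minus the luminal effect -2.45 (SE 0.47, limma adjusted p = 0.0143). Ltbp4 (-2.17, SE 0.49, limma adjusted p = 0.0286) and Gdf15 (-1.54, SE 0.39, limma adjusted p = 0.0408) differed between basal and luminal cells. Smad3, called in basal cells only, was not called as different between basal and luminal cells (1.33, SE 0.44, limma adjusted p = 0.0975) or between stromal and basal cells (-1.66, SE 0.52, limma adjusted p = 0.12). Of 28 members tested for each pair, 3 were called each time, all of them lower, against 2.98%, 2.51% and 4.26% of all genes tested. Lower calls made up 2.09%, 2.43% and 3.18% of all genes, and higher calls 0.891%, 0.0756% and 1.09%. Between stromal and luminal cells 5 members were called without Lgr5-DTR luminal library 3 (2.27% of all genes) or wild type luminal library 1 (2.79%). Between basal and luminal cells 8 were called without Lgr5-DTR basal library 1 (9.06% of all genes), and Bmp1 alone without Lgr5-DTR basal library 2 or 3, Lgr5-DTR luminal library 1, wild type basal library 3, or wild type luminal library 2 or 3. In the fits that called Bmp1 alone, 1.53% to 2.48% of all genes were called. Tgfb2 between stromal and basal cells lost its call without Lgr5-DTR basal library 2 (adjusted p = 0.0523), wild type basal library 2 (0.0533), wild type basal library 3 (0.0549) or wild type stromal library 3 (0.051).

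The wider pathway was read through 6 gene lists, which hold no members apart from Smad6 and Smad7 among the BMP response genes. The lists share some genes, so their counts are not independent. Fn1 stands among both the TGF-beta response and the latent storage genes, and Bambi among both the BMP response genes and the co-receptors. Among 30 TGF-beta response genes, known to be induced by TGF-beta in many cells, none of 28 tested rose in stromal cells and 4 fell, against 0.0655% and 1.1% of all genes. Postn, the matrix protein periostin, stood at 42.5, 32.8 and 41.6 FPKM in wild type and 9.29, 9.74, 4.68 and 5.88 FPKM in Lgr5-DTR stromal cells (-2.29, SE 0.27, limma adjusted p = 0.00216). Col3a1 of the collagens was called lower at the edge of the threshold (-1.29, SE 0.27, limma adjusted p = 0.0498) and lost its call in 13 of 15 alternatives, while Postn kept its call in all 15. At an unadjusted p below 0.05, limma gave 4 of the 28 higher and 10 lower, and the list median was -0.18.

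In basal cells, none of 23 TGF-beta response genes rose and 7 fell, against 6.5% and 4.46% of all genes. Ctgf and Cyr61, matricellular proteins also known as targets of the mechanosensing factor YAP, were among them. Ctgf stood at 94.8, 140 and 91.1 FPKM in wild type and 32.3, 6.32 and 8.84 FPKM in Lgr5-DTR basal cells (-3.01, SE 0.50, limma adjusted p = 0.00922). Cyr61 also fell (-1.56, SE 0.22, limma adjusted p = 0.004). Tagln, an actin-binding protein of contractile cells, stood at 34.4, 28.6 and 23.4 against 8.19, 5.47 and 8.41 FPKM (-1.84, SE 0.21, limma adjusted p = 0.00179). Tagln is itself one of the smooth muscle markers. Their sum stood at 31.9 to 41.6 FPKM in wild type and 10.6 to 13.7 FPKM in Lgr5-DTR basal cells, most of it Tagln. Acta2 was also lower (3.30, 3.00 and 5.17 against 2.27, 1.95 and 1.41 FPKM). Cnn1 overlapped, and Myh11 and Actg2 stayed at or below 0.612 FPKM. The basal epithelial markers summed to 9991 to 12940 and 7211 to 8723 FPKM. Krt14, Krt15 and Trp63 were lower in every Lgr5-DTR library. Krt5 was higher (381, 307 and 352 against 430, 417 and 461 FPKM), and Krt17 overlapped. The part of these markers in the calls was not tested. Ctgf lost its call without Lgr5-DTR library 3 or wild type library 2 (adjusted p up to 0.0695). Limma gave 3 of the 23 higher and 10 lower at an unadjusted p below 0.05, and the list median was -0.32.

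In luminal cells 6 of 25 TGF-beta response genes rose and none fell, against 2.62% and 0.513% of all genes. Limma gave 16 higher and 0 lower at an unadjusted p below 0.05; the list median was 0.80. Tgfbi, an extracellular matrix protein, stood at 0.632, 0.555 and 0.358 FPKM in wild type and 29.9, 6.76 and 15.6 FPKM in Lgr5-DTR luminal cells (3.39, SE 0.44, limma adjusted p = 0.00882). Col1a1, the collagen chain, stood at 3.23, 4.51 and 5.45 against 38.7, 18.1 and 39.8 FPKM (2.56, SE 0.31, limma adjusted p = 0.00681). Col1a1, Col1a2 and Col3a1 also stand in the fibroblast marker list, so these calls and that list's sum are the same data. Postn, lower in stromal cells, was higher here (18.4, 18.5 and 23.1 against 217, 50.2 and 149 FPKM; 2.51, SE 0.49, limma adjusted p = 0.0447). Of the BMP response list, no member of 14 tested was called in stromal cells, against 1.17% of all genes (limma gave 0 higher and 4 lower at an unadjusted p below 0.05). In basal cells 1 of 11, Bambi, fell, against 4.46% of all genes. The list medians in the stromal, basal and luminal comparisons were -0.26, -0.44 and 0.55. Runx2 and Msx2, transcription factors known as BMP targets, rose in luminal cells (1.82, SE 0.28, limma adjusted p = 0.0138, and 1.67, SE 0.26, limma adjusted p = 0.0158). They were the only 2 calls among 16 tested genes of that list, against 2.62% of all genes higher. Runx2 and Tgfbi reached 1 FPKM in no wild type luminal library. Both passed the filter only through the Lgr5-DTR group where they are high, so their calls follow in part from that filter. Tgfbi, Col1a1, Runx2 and Msx2 each lost their luminal calls without the filter on low values, without wild type library 2 and without wild type library 3, with adjusted p up to 0.0934, 0.0878, 0.0934 and 0.0979. Without wild type library 3 limma called 0 of 10360 genes in luminal cells, although 10 members had an unadjusted p below 0.05.

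Other extracellular parts of the pathway also moved. Of the secreted modulators, 5 of 9 tested fell in basal cells, against 4.46% of all genes, among them Twsg1, which shapes BMP activity with chordin (44.6, 42.8 and 45.5 FPKM in wild type, 23.9, 17.7 and 17.3 FPKM in Lgr5-DTR; -1.15, SE 0.16, limma adjusted p = 0.00388), and Fmod, a collagen-binding proteoglycan. Dcn, another of the 5, makes up nearly all of the fibroblast marker sum in basal cells, which was lower in the same libraries, and lost its call in 8 of 14 alternatives. In stromal cells 1 of 14 fell, against 1.1% of all genes. In luminal cells 0 of 10 were called, against 3.14% of all genes (limma gave 0 higher and 1 lower at an unadjusted p below 0.05). Among latent TGF-beta storage and activation genes, basal cells had 3 higher and 1 lower of 13 tested, against 6.5% and 4.46% of all genes. Plat, the tissue plasminogen activator, stood at 9, 7.4 and 10.0 FPKM in wild type and 36.0, 79.7 and 49.0 FPKM in Lgr5-DTR cells (2.44, SE 0.27, limma adjusted p = 0.00179). Plau and Itgb1 also rose, and the TGF-beta-activating integrin subunit Itgb8 fell (-1.25, SE 0.23, limma adjusted p = 0.0123). Among basal libraries, Plau reached 1 FPKM only in Lgr5-DTR and Itgb8 only in wild type cells. Each passed the filter only through the group where it is high, so these 2 calls follow in part from that filter. Stromal Fn1, the fibronectin to which latent complexes attach, fell (-1.37, SE 0.21, limma adjusted p = 0.0107), and luminal Lrrc32, a cell-surface anchor of latent TGF-beta, rose (1.43, SE 0.31, limma adjusted p = 0.0459).

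Cd109, a TGF-beta co-receptor, fell in stromal cells (5.44, 6.01 and 10.3 FPKM in wild type, 1.22, 1.39, 1.71 and 1.73 FPKM in Lgr5-DTR; -1.67, SE 0.25, limma adjusted p = 0.00859) and rose in basal cells (4.84, 3.71 and 5.41 against 18.9, 11.1 and 10.7 FPKM; 1.33, SE 0.24, limma adjusted p = 0.0101). Bambi, a decoy receptor without kinase activity, fell in basal cells (-1.96, SE 0.45, limma adjusted p = 0.0289), and Eng, endoglin, rose in luminal cells (1.15, SE 0.24, limma adjusted p = 0.0357). Of 20 intracellular regulators, none was called in stromal cells (limma gave 1 higher and 0 lower at an unadjusted p below 0.05), 2 rose and 1 fell in basal cells and 1 rose in luminal cells. These shares lie near those of all genes called, 11% in basal and 3.14% in luminal cells. Nedd4l, a ubiquitin ligase for activated Smads, rose in both epithelial sorts (basal 0.80, SE 0.17, limma adjusted p = 0.0192; luminal 1.43, SE 0.20, limma adjusted p = 0.00906), and Skil, the Smad repressor SnoN, fell in basal cells (-0.81, SE 0.19, limma adjusted p = 0.0255). Among these extracellular and regulatory genes, Twsg1, Plat and stromal Cd109 kept their calls in every alternative. Basal Bambi and luminal Lrrc32 each lost theirs in 8 of 14 alternatives, Itgb1 and Eng in 7, Skil in 6, Fmod in 5 and stromal Fn1 in 4 of 15, mostly when single libraries were left out.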

How the data were processed

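RNA of 19 sorted libraries was reverse transcribed with a SMART-Seq v4 low-input kit and sequenced on an Illumina HiSeq from Nextera XT libraries, per the labels' protocols. Reads were processed with TopHat2 and Cufflinks against mm10, per the submitters' processing notes; versions are not given in the sources used here. The authors deposited 1 Cufflinks table per library with FPKM, its confidence limits and coverage per transcript; coverage, deposited by the authors as signal, was used only to sum aligned bases as depth. FPKM carries no counts, so no count model was used. Here FPKM was summed per gene symbol, log2(FPKM + 1) was fitted with limma 3.58.1 (trend, robust) in R 4.3.3, and genes with a failed or too-deep status in a library of a fit were left out. Genotype comparisons were fitted within each sort, the 3 wild type sorts in 1 fit of 9 libraries, and interactions over both sorts of a pair; the code was tested on simulated data. The pseudocount was 1. Alternatives were a pseudocount of 0.1, no filter, a filter at 5 FPKM, 2 other scalings, the highest transcript only, the set of tables as a covariate, a replicate block and leaving out each library. The members and gene lists were chosen with earlier results of these data known. Named members were those called in a genotype comparison or an interaction (filled to 5 and 3 by smallest p), the 12 called with the largest differences between wild type sorts, the 5 most abundant per wild type sort and, from each list, up to 4 genes with the smallest p per genotype comparison; other names were added after their values were seen. In the tables' annotation 11 members overlap another gene (among them Ltbp2, Ltbp3, Bmp4, Bmp6, Bmp8b, Acvr2a and Chrd), and with no strand stated their reads cannot be told apart. Some results of the gene and marker lists are not reported here.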

Additional observations from a re-analysis of the deposited data

Results flagged for a closer look

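In Lgr5-DTR stromal cells, the values of the 38 tested members were examined for 1 library lying far from the other 3; chance alone marks about 1 group in 20. Library 4, the least deeply sequenced at 5.26 gigabases, was the low one for Chrd (4.2 FPKM, against 6.37, 6.60 and 6.57 FPKM in libraries 1 to 3) and for Acvr1 (14 FPKM, against 21.5, 20.8 and 21.1 FPKM). Neither gene was called in stromal cells.

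The genotype effect differed between sorts, by the test of the difference itself (limma interaction terms), for 9 pairings of gene and sorts. Ltbp1 had a stromal effect below its basal effect by a log2 difference of -3.96 and below its luminal effect by -3.378. Fst had a stromal minus basal difference of -2.293. Tgfb2 had a stromal minus basal difference of -1.679 and a stromal minus luminal difference of -1.928. Bmp1 had a stromal minus luminal difference of -2.386 and a basal minus luminal difference of -2.446. Between basal and luminal cells, Ltbp4 differed by -2.166 and Gdf15 by -1.544.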

How the results depend on the processing

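Counts of called members between wild type sorts stayed within 1.5 times of those reported under every alternative; leaving out 1 library gave 22 to 31 for stromal minus basal, 26 to 35 for stromal minus luminal and 20 to 26 for basal minus luminal. Genotype counts were less stable. Without the filter on low values, which adds genes to the adjustment, called members went from 3 to 0 in stromal cells (11 at an unadjusted p below 0.05), from 7 to 4 in basal cells, from 2 to 0 in luminal cells (13 at an unadjusted p below 0.05) and from 3 to 1 for the basal minus luminal interaction. The shares of all genes called went from 1.17%, 11%, 3.14% and 4.26% to 0.179%, 2.65%, 0.0217% and 2.47% in the same order. With the set of tables as a covariate, 1 stromal member was called, since the set holds no stromal library but Lgr5-DTR library 3 and the fit is then close to leaving it out. Of all stromal genes, 0.458% were then called. The same covariate gave 5 luminal members, with 7.13% of all genes called. Quantile normalization left 1 luminal member, with 2.06% of all genes called. The cause was not tested. The filter at 5 FPKM removed Ltbp1 and Tgfb2 from the stromal minus basal interaction, leaving 1, with 2.89% of all genes called against 2.98%. Leaving out 1 library gave 0 to 3 stromal, 4 to 16 basal and 0 to 6 luminal calls, and 2 to 4, 3 to 5 and 1 to 8 calls for the stromal minus basal, stromal minus luminal and basal minus luminal interactions. The shares of all genes called ranged from 0.297% to 2.21%, 3.03% to 23.7% and 0% to 8.57% in the sorts. For the interactions they ranged from 1.27% to 4.22%, 0.903% to 2.92% and 1.53% to 9.06%. Ltbp4 between basal and luminal cells lost its call without any of 7 libraries (adjusted p up to 0.0846), and Gdf15 without any of 7 (up to 0.0959). Of 2004 values of named genes under alternatives, 1749 stayed on their side of the threshold, 204 lost a call, 51 gained one and none changed sign.

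Wild type and Lgr5-DTR libraries share replicate numbers, but same-numbered libraries did not deviate together in every pair: correlations of their deviations were 0.467, 0.516 and 0.00937 in stromal, -0.522, -0.239 and -0.38 in basal and 0.419, -0.111 and 0.314 in luminal cells, and in no sort did every library correlate best with its own number across all pairs. With the replicate block, 10 stromal members (2 higher, 8 lower), 3 basal and 7 luminal members were called; other counts stayed within 1.5 times. In stromal cells Tgfbr3 and Bmp6 were then among those called, and in basal cells Gdf15 was not (adjusted p = 0.0613). The shares of all genes then called were 9.74%, 2.18% and 7.17% in the same order. Numbers in the sample titles recur across sorts of 1 genotype; such libraries had correlations of -0.0122 to 0.426 in wild type and 0.0989 to 0.409 in Lgr5-DTR mice. With the title number as a block, the 3 counts between wild type sorts stayed at 31, 35 and 26 and the interactions gave 4, 3 and 3. Of all genes, 58.5%, 69.1% and 65.8% were then called between sorts, and 5.09%, 2.68% and 7.02% in the interactions. Depth differs by less than 2-fold between libraries, and low members such as Gdf9 or Acvr2b carry few fragments.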

Other observations

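Inhba had a higher mean in Lgr5-DTR than in wild type libraries of every sort without being called in any. In stromal cells it was 83.7 ± 42.0 FPKM (SD, n = 4) in Lgr5-DTR and 30.5 ± 18.8 FPKM (SD, n = 3) in wild type mice. In basal cells it was 323 ± 102 and 169 ± 53.4 FPKM, and in luminal cells 21.4 ± 6.65 and 7.89 ± 5.03 FPKM (SD, n = 3 in each group). Bmp7 averaged 8.10 ± 6.65 FPKM in Lgr5-DTR and 21.4 ± 7.62 FPKM in wild type basal cells, and 19.9 ± 4.78 and 31.5 ± 3.69 FPKM in the luminal groups (SD, n = 3 in each group), also not called. Gdf1 was listed at 0 in all 19 libraries; its annotation overlaps Cers1 and Upf1. These genes were singled out after their values were seen.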
